A study of Mus musculus with 2 samples.

Results

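Genes of type 2 immunity, 9 in all, were followed cell by cell in 2 single-cell RNA libraries of mediastinal lymph nodes, taken from mice in which asthma was induced with ovalbumin (OVA). They were the cytokine genes Il4, Il5 and Il13, the transcription factor gene Gata3, the receptor genes Il1rl1, Il17rb, Ccr8 and Ccr4, and the growth factor gene Areg. They were taken by gene symbol from the gene lists of both libraries, and all 9 of 9 were among the 31053 genes measured. Both groups were wild-type C57/B6J mice aged 5 to 13 weeks, sensitized with 50 µg OVA on days 0 and 7, challenged from day 14 to day 16 and sampled on day 17. One group received butyrate (labelled C4), a short-chain fatty acid made by gut bacteria, and the other did not. The study gave butyrate in drinking water or by gavage, with saline as the control, and which route served these libraries was not stated in the sources used here. Cells of 4 mice were pooled into each library, so each condition has 1 library and no replicate. Differences between mice therefore cannot be measured, no test was possible, and all intervals are 95% intervals that cover counting error only.

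The values are counts of unique molecular identifiers (UMIs), each standing for 1 captured RNA molecule of a gene in 1 cell. The library without butyrate held 9681 cells with a median of 5140 UMIs and the library with butyrate 8932 cells with a median of 5651 UMIs. After removal of damaged cells and predicted doublets, 8760 and 7990 cells were analysed, of which 22 barcodes occurred in both libraries. Levels are given as CPM, the UMIs of a gene summed over the cells of a class and scaled to the same total of UMIs of all genes in every class. A gene was said to be found in a cell that held at least 1 of its UMIs. In bulk sums of this kind, fewer cells with a gene and less RNA per cell cannot be told apart, so the cells themselves are described wherever their number allows.

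Type 2 immunity is driven by interleukin-4 (IL-4), IL-5 and IL-13, which act on B cells, eosinophils, and epithelium and smooth muscle. T helper 2 (Th2) cells and group 2 innate lymphoid cells (ILC2) make IL-5 and IL-13, and T follicular helper (Tfh) cells in lymph nodes make IL-4 for B cells. GATA3 is the transcription factor that both Th2 cells and ILC2 need, and the receptors for IL-33 (ST2, encoded by Il1rl1) and IL-25 (a complex with the product of Il17rb) let tissue alarm signals reach them. CCR4 and CCR8 are chemokine receptors of Th2 and regulatory T (Treg) cells, and amphiregulin (Areg) is an epidermal growth factor family ligand linked to tissue repair.

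The 3 cytokine genes lie together on mouse chromosome 11. In the mm10 build, Il4 spans chr11:53602982-53618669 on the minus strand, Il13 chr11:53631324-53634702 on the minus strand and Il5 chr11:53720794-53725106 on the plus strand. Between Il4 and Il13 there are 12.655 kb, and between Il13 and Il5 there are 86.092 kb that hold Rad50, a DNA repair gene. Gata3 is on chromosome 2, Il1rl1 on chromosome 1, Il17rb on chromosome 14, Ccr8 and Ccr4 on chromosome 9 and Areg on chromosome 5.

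The sequences are the 250 bases before the RefSeq start of the 3 cytokine genes and of Il1rl1. Sequences are from RefSeq on GRCm38.p6, are written 5′ to 3′ on the strand of the gene, and all 9 genes were matched. Capitals mark GATA motifs, searched on both strands as AGATAA, its variant with a final G, which is AGATAG, and the forms that start with T, which are TGATAA and, with a final G, TGATAG. The Il4 window is chr11:53618666-53618915, the Il5 window chr11:53720544-53720793, the Il13 window chr11:53634703-53634952 and the Il1rl1 window chr1:40429320-40429569.
Il4: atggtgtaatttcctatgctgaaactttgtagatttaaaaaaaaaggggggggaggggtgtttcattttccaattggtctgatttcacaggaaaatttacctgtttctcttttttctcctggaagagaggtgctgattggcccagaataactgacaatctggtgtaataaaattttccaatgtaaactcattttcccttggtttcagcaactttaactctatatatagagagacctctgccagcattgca
Il5: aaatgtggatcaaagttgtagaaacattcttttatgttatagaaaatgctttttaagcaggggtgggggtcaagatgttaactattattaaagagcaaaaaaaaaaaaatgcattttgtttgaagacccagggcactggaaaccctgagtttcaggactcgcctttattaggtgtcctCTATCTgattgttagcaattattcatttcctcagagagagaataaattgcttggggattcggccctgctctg
Il13: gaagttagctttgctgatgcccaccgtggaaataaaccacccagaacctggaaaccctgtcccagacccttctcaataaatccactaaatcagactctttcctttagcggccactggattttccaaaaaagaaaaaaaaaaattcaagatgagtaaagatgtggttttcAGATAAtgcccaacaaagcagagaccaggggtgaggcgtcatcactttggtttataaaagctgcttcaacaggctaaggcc
Il1rl1: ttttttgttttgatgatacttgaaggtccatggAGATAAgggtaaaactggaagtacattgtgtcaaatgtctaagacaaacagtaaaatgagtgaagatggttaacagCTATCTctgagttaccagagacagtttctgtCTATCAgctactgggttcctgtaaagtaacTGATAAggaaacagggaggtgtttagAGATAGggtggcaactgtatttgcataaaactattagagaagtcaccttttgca
The Il4 window held 0 matches, the Il5 window 1 (72 bases before the start) and the Il13 window 1 (81 bases before it). The Il1rl1 window held 5 matches, at 217, 141, 110, 80 and 54 bases before the start, none of which overlapped another. Of the other genes, Ccr8 had 1 match and Gata3, Il17rb, Ccr4 and Areg had 0. The RefSeq starts used for Gata3 and Ccr4 lay 11434 and 8372 bases from the gene starts of the annotation behind the positions above. Their 0 therefore describes these windows only. A match was common in general, since 26.5% of 32851 mouse promoter windows held at least 1 and 6.402% held at least 2. A match describes letters, not binding.

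Cells were grouped by clustering without the 9 genes and named from marker genes. CD4+ T cells numbered 2282 without and 1852 with butyrate. They included Treg cells (236 and 227), naive CD4+ T cells (1070 and 1160), cycling CD4+ T cells (35 and 24), and a sub-cluster led by S100a6, S100a4, Sostdc1 and Maf (200 and 150). The last took no cell type name, because its leading genes included markers of both Tfh cells (Pdcd1, Tox2) and memory T cells (S100a6, S100a4, Itgb1), and it is called the S100a6-Maf sub-cluster. A second unnamed CD4+ sub-cluster (447 and 207 cells) was led by Sox4, Myb, Dntt and Rag1. Cycling cells counted as CD4+ T cells when they held more Cd3 than Cd79 UMIs and no Cd8 or Trdc UMI. A Cd4 UMI was not required of them. A small cluster led by Tmem176b, Lmo4, Cxcr6 and Rora held 35 cells without and 67 cells with butyrate and had a Cd4 level under the limit set for CD4+ T cells, a limit that was chosen after the data were seen. It is called the Tmem176b-Rora cluster and was kept apart. At clustering resolutions of 0.4 and 1.2 in place of 0.8 its cells fell among CD4+ T cells, so every statement that sets the cluster against CD4+ T cells holds for the resolution used here. B cells (4105 and 3909, median 4358 and 4597 UMIs), which should lack most of the 9 genes, served as the background for free RNA.

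The genes were found in few cells. Without and with butyrate, Il4 was found in 45 of 8760 and 47 of 7990 cells, Il5 in 7 and 6 cells and Il13 in 8 and 14 cells. Il1rl1 was found in 51 and 29 cells, Il17rb in 47 and 60, Ccr8 in 30 and 19, Ccr4 in 56 and 54, and Areg in 44 and 29. Gata3 was the exception and was found in 855 cells (9.76%, 9.15 to 10.4) and 819 cells (10.3%, 9.59 to 10.9). No UMI of any of the 9 genes was found in 7824 and 7059 cells, and Gata3 alone in 736 and 738 cells.

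**Figure D1:**
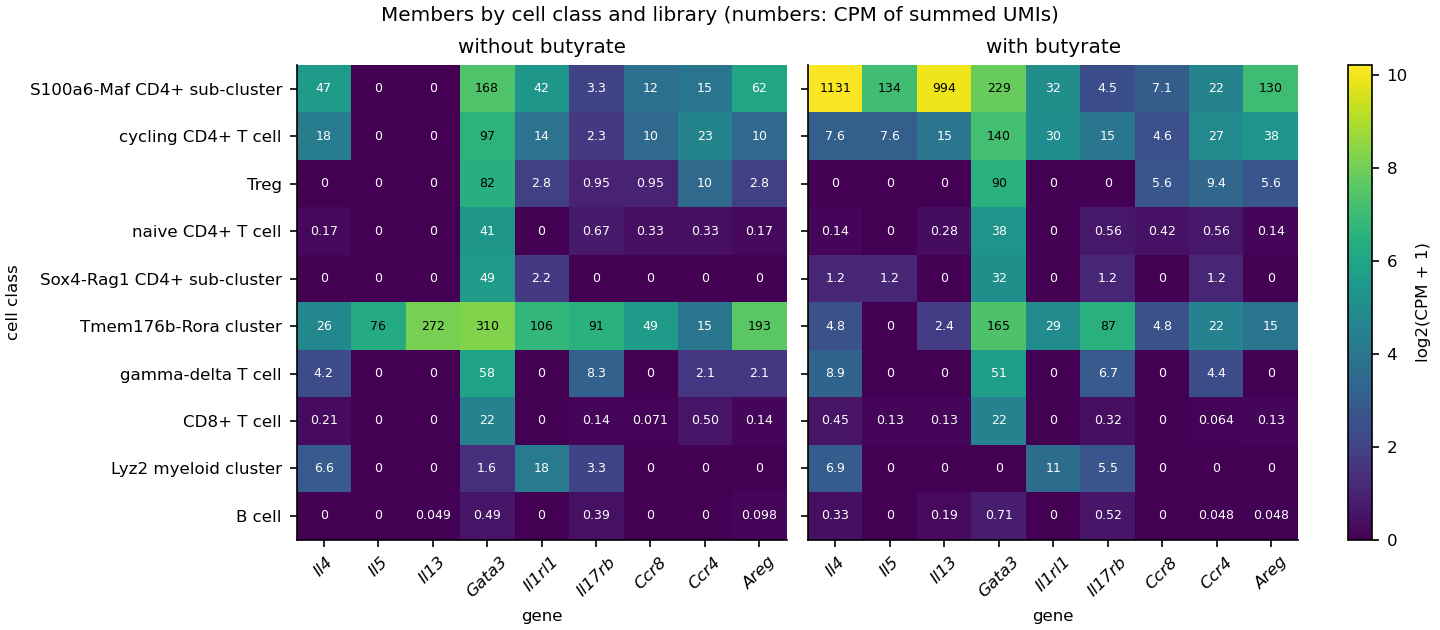
Level of each gene (columns) in each cell class (rows), without butyrate on the left and with butyrate on the right; colour is log2(CPM + 1) and the number is the CPM of UMIs summed over the class. Il5 and Il13 sat in the Tmem176b-Rora cluster without butyrate (75.5 and 272 CPM) and in the S100a6-Maf sub-cluster with butyrate (134 and 994 CPM), while Gata3 was present across the T cell classes in both libraries.

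Il4, which drives antibody class switching to IgE, was found mainly in the S100a6-Maf sub-cluster. Without butyrate, 58 of its 96 UMIs were in 26 of the 200 cells of that sub-cluster (47.4 CPM, 36.0 to 61.3), and 16 UMIs were in 5 of 35 cycling CD4+ T cells. With butyrate, 1266 of 1307 UMIs were in 22 of 150 cells (1131 CPM). The share of S100a6-Maf cells with Il4 was 13% (8.67 to 18.5) without and 14.7% (9.43 to 21.4) with butyrate, so the number of Il4 cells was much alike while their UMIs were not. At 2000 UMIs per cell these shares were 6.60% and 4.03%. Among B cells, 0 of 4105 held Il4 without butyrate, where a count of 0 leaves room for at most 0.0731%, and 7 of 3909 (0.179%) held 1 UMI each with butyrate. The shares in naive CD4+ T cells (0.0935% and 0.0862%) and CD8+ T cells (0.101% and 0.160%) had counting intervals that overlapped those of B cells in the same library. Single UMIs there are not read as expression, but 1 CD8+ T cell held 5 Il4 UMIs of 4082 with butyrate and 1 held 2 of 14884 without, where no B cell held more than 1.

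Il13, which acts on airway epithelium and smooth muscle, and Il5, the growth factor of eosinophils, were found in other cells without butyrate than with it. Without butyrate, all 20 Il5 UMIs were in 7 of 35 cells of the Tmem176b-Rora cluster, and 72 of 73 Il13 UMIs were in 7 of these 35 cells. The remaining Il13 UMI was in a B cell, and no cell of the CD4+ class held a UMI of either gene. With the clustering resolutions of 0.4 and 1.2, CD4+ T cells without butyrate held 20 Il5 and 72 Il13 UMIs. In addition, 2 cells removed as predicted doublets held 11 and 5 Il13 UMIs, with 20 and 16 Cd4, 15 and 8 Cd3e, 13 and 7 Trac, and 30 and 1 Cd79a UMIs. With butyrate, 150 of 158 Il5 UMIs and 1112 of 1132 Il13 UMIs were in the same 2 cells of the S100a6-Maf sub-cluster, and the 67 cells of the Tmem176b-Rora cluster held 0 Il5 UMIs and 1 Il13 UMI. Single Il13 UMIs occurred in 4 of 3909 B cells with butyrate (0.102%), 2 of 1160 naive CD4+ T cells (0.172%) and 2 of 1880 CD8+ T cells (0.106%), with counting intervals that overlapped, so these single UMIs are not read as expression.

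**Figure D2:**
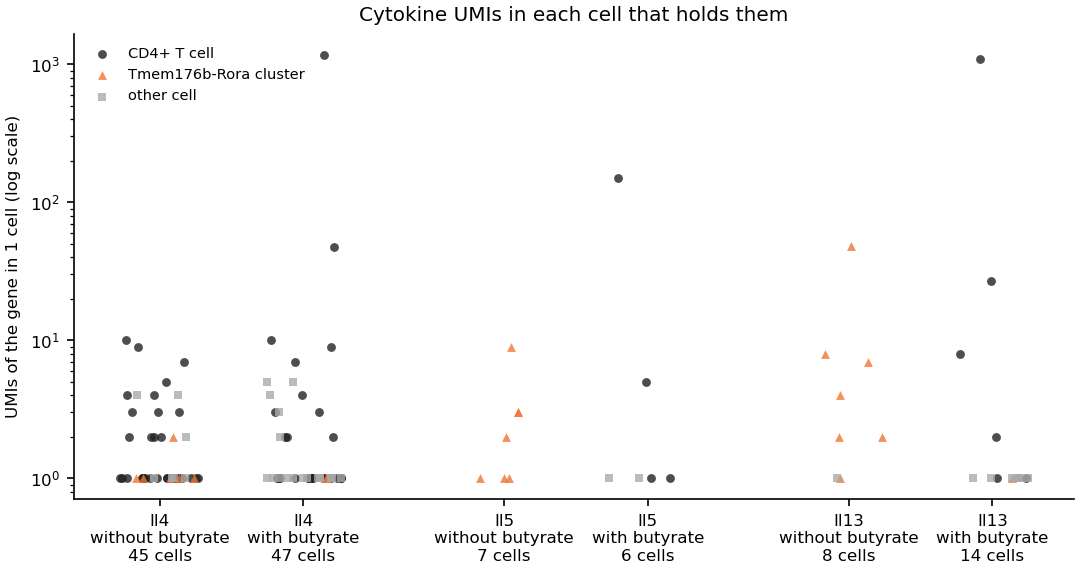
UMIs of Il4, Il5 and Il13 in each cell in which they were found (log scale), by library; circles are CD4+ T cells, triangles the Tmem176b-Rora cluster and squares other cells. A single circle at 1168 Il4, 149 Il5 and 1085 Il13 UMIs stands far above every other cell of both libraries, and the Il5 and Il13 cells without butyrate are triangles apart from 1 square.

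One cell carried most of the cytokine UMIs with butyrate. It held 1168 of 1307 Il4 UMIs (89.4%), 149 of 158 Il5 UMIs (94.3%) and 1085 of 1132 Il13 UMIs (95.8%), and also 103 of 191 Areg UMIs (53.9%) and 59 of 1284 Gata3 UMIs. Cytokine UMIs were 3.20% of its 75016 UMIs, which made it the third deepest of 7990 cells, and its doublet score of 0.0611 was below the limit of 0.157 for removal. Its T cell genes were clear, with 32 Cd3e, 40 Trac and 33 Cd4 UMIs against 2 UMIs of the B cell gene Cd79a. It held 24 UMIs of Pdcd1 and 27 of Il21, genes of Tfh cells, and 0 of the Tfh-defining Cxcr5 and Bcl6, 0 of Il1rl1 and 0 of Ccr4.

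The same cell held large numbers of UMIs of secreted factors outside the type 2 group. There were 1710 UMIs of Ccl3 and 1701 of Ccl4, chemokines of activated lymphocytes and myeloid cells, 442 of Ifng, the cytokine of type 1 immunity, 390 of Ccl1, the ligand of CCR8, and 193 of Il10, an anti-inflammatory cytokine. The cell with the next most cytokine UMIs held 47 Il4, 27 Il13, 1 Il5, 14 Gata3 and 16 Areg UMIs among 25190 UMIs, with 0 UMIs of Ccl3, Ccl4, Ifng, Ccl1 and Il10. The Ccl3, Ccl4, Ifng, Ccl1 and Il10 UMIs therefore did not accompany the cytokine genes in both of these cells. The remaining Il4 cells of both libraries held at most 10 UMIs each.

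Without butyrate no cell dominated in this way for most genes. The highest cell held 10 of 96 Il4 UMIs (10.4%), 8 of 113 Il1rl1 UMIs (7.08%) and 15 of 1245 Gata3 UMIs (1.205%). Il13 was again concentrated, with 48 of 73 UMIs (65.8%) in 1 cell of the Tmem176b-Rora cluster that had 14066 UMIs. Gata3 was spread instead, with 1 UMI in 74.3% and 75.0% of the cells that held it. Leaving out the highest cell, 139 Il4 and 47 Il13 UMIs remained with butyrate and 86 Il4 and 25 Il13 UMIs without.

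In CD4+ T cells the 3 cytokine genes were higher with butyrate. Il4 was at 111.7 CPM (106 to 118) with and 6.02 CPM (4.73 to 7.54) without butyrate, 18.6-fold higher, and its log2 ratio, taken with 10 CPM added to both levels, was 2.93 (2.78 to 3.07). Il13 had 1124 UMIs with and 0 UMIs without butyrate, at least 409.9-fold higher if a count of 0 allows 3 UMIs, with a log2 ratio of 3.44 (3.35 to 3.52). Il5 had 156 and 0 UMIs, at least 56.9-fold higher, with a log2 ratio of 1.24 (1.11 to 1.38). These 3 of the 7 genes with at least 50 UMIs passed a log2 ratio of 1, where 0.0823% of 9724 genes did in this direction. None of the 9 passed −1, where the share was also 0.0823%. With 10 CPM added, a gene under 10 CPM without butyrate cannot reach −1 even at 0 UMIs. Of the 7 genes only Gata3 (60.8 CPM) was above that level, so no drop could have been called for the others. All 3 calls rested on 1 cell: without it the log2 ratio was 0.27 for Il4 (105 against 75 UMIs), 0.09 for Il5 (7 against 0 UMIs) and 0.43 for Il13 (39 against 0 UMIs). Of these remaining UMIs, 5 of Il5 and 8 of Il13 were in 1 cycling CD4+ T cell. That cycling cell held 0 Cd4, 1 Trac, 12 Klrg1 and 25 Arg1 UMIs. With CD4+ T cells taken instead by UMIs of single marker genes, the log2 ratio of Il13 was −0.37 (29 against 56 UMIs). That choice leaves out the cell with most cytokine UMIs, which held 2 Cd79a UMIs. It also takes in 2 cells of the Tmem176b-Rora cluster that held 1 Cd4 UMI each and 48 and 8 Il13 UMIs without butyrate.

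The log2 ratios of the other genes were under 1 in size in CD4+ T cells. Areg had a log2 ratio of 0.58 (0.39 to 0.76), and −0.04 (−0.23 to 0.14) without the same cell. The log2 ratio was 0.12 (−0.0029 to 0.25) for Gata3, −0.07 (−0.25 to 0.11) for Il1rl1 and 0.07 (−0.11 to 0.24) for Ccr4. Il17rb, with 11 UMIs without and 21 with butyrate, and Ccr8, with 27 and 20, had too few UMIs to be called. The counting intervals of Gata3, Il1rl1 and Ccr4 included 0 and reached at most 0.25 in size. For Gata3 a log2 ratio of 1 in either direction lay outside the interval. Il1rl1 (5.70 CPM without butyrate) and Ccr4 (4.41 CPM) could not reach −1 with 10 CPM added. Their intervals therefore cannot show whether their RNA was halved. Il1rl1 was found in 1.53% (1.07 to 2.13) of CD4+ T cells without and 0.972% (0.577 to 1.53) with butyrate.

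**Figure D3:**
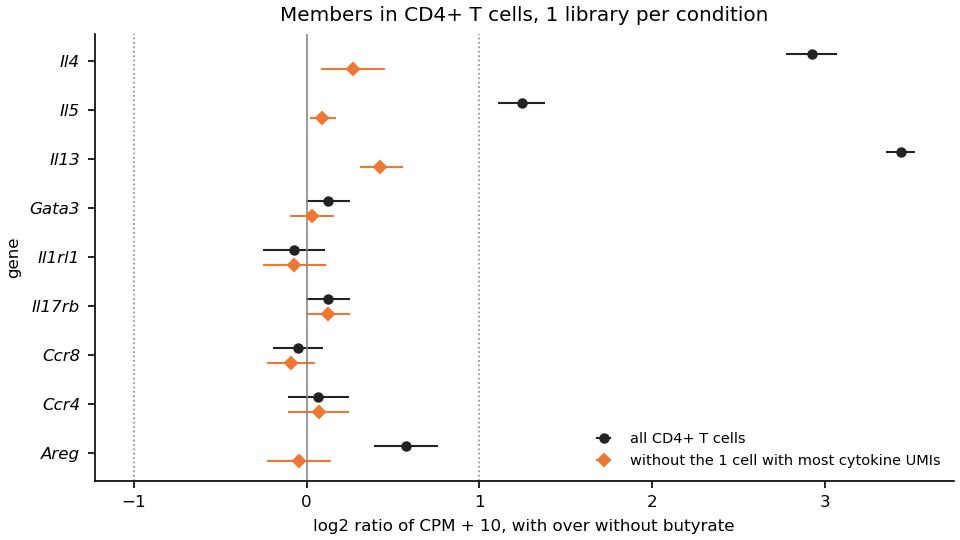
Log2 ratio of CPM + 10 with over without butyrate in CD4+ T cells for each gene, from all cells (circles) and without the 1 cell with most cytokine UMIs (diamonds); bars are 95% counting intervals from 1 library per condition and dotted lines mark ratios of −1 and 1. Il4, Il5 and Il13 fall from 2.93, 1.24 and 3.44 to 0.27, 0.09 and 0.43 when 1 cell is left out.

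How many cells made cytokine RNA differed less than how much RNA there was. CD4+ T cells with at least 2 UMIs of Il4, Il5 and Il13 together, called type 2 cytokine cells here, numbered 13 of 2282 without butyrate (0.570%, 0.304 to 0.972) and 13 of 1852 with butyrate (0.702%, 0.374 to 1.197). In each library 10 of the 13 were in the S100a6-Maf sub-cluster, 3 were cycling and 0 were Treg cells. The intervals of the shares overlapped, and with the Tmem176b-Rora cluster counted among CD4+ T cells the order turned, to 0.906% without and 0.677% with butyrate. Without butyrate all 13 held Il4 alone, and with butyrate 9 did. Their summed cytokine UMIs ranged from 2 to 10 with a median of 3 without butyrate, and from 2 to 2402 with a median of 4 with butyrate. They were deeper than other CD4+ T cells, with medians of 9063 against 4932 UMIs without and 13266 against 5644 UMIs with butyrate.

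In the Tmem176b-Rora cluster Il13 and Il5 were lower with butyrate. Il4 had a log2 ratio of −1.30 there, but no cell of the cluster held more than 2 of its UMIs. Il13 was at 272 CPM (213 to 342) without and 2.42 CPM (0.0613 to 13.5) with butyrate, and at 90.6 CPM without butyrate when its highest cell, with 48 of 72 UMIs, was left out. Il5 was at 75.5 CPM (46.1 to 117) without and found in 0 of 67 cells with butyrate, where a count of 0 allows 7.26 CPM, and without its highest cell, with 9 of 20 UMIs, it was at 41.5 CPM. Il1rl1 was at 106 CPM (70.3 to 153) without and 29.0 CPM (15.0 to 50.7) with butyrate, and Areg at 193 CPM (143 to 253), or 109.5 CPM without its highest cell, and 14.5 CPM (5.33 to 31.6). Ccr8 was at 49.1 CPM (26.1 to 84.0) and 4.84 CPM (0.586 to 17.5). The counting intervals of these levels of Il13, Il5, Il1rl1, Areg and Ccr8 did not overlap between the libraries. They treat UMIs of the same cell as independent. By share of cells, the intervals of Areg (4 of 35 against 1 of 67 cells) and Ccr8 (7 of 35 against 2 of 67) overlapped. Those of Il13 (7 of 35 against 1 of 67), Il5 (7 of 35 against 0 of 67) and Il1rl1 (10 of 35 against 3 of 67) did not. Gata3 was at 310 CPM (246 to 384) and 165 CPM (128 to 209). Il17rb, by contrast, was at 90.6 CPM (58.1 to 135) and 87.1 CPM (61.0 to 121) and Ccr4 at 15.1 and 21.8 CPM, with intervals that overlapped. These sums rest on 35 and 67 cells of 1 library each.

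The Il5 and Il13 cells of this cluster without butyrate numbered 8, and each is a small record of its own. Their Il13 and Il5 UMIs were 48 and 1, 7 and 9, 8 and 1, 4 and 3, 2 and 2, 1 and 1, 0 and 3, and 2 and 0. Gata3, Il1rl1, Rora, Arg1 (arginase, a gene of ILC2) and Klrg1 (a receptor of ILC2 and effector T cells) were found in 8 of 8 of them, Il17rb in 7, Areg in 4, Ccr8 in 3 and Ccr4 in 0. In the other 27 cells of the cluster, which were shallower (median 5291 against 12827.5 UMIs), Il1rl1 and Klrg1 were found in 2 cells each, Arg1 in 4 and Areg in 0. All of the 51 Areg UMIs of the cluster were therefore in 4 of these 8 cells.

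Markers of other cell types were counted in the same 8 cells. Of the 6 ILC2 markers listed, 5 were found, Ptgdr2 was at 0, and 8 of 8 cells held at least 2 of them, with 12 to 50 UMIs per cell. Of the 6 CD4+ T cell markers all 6 were found, and 6 of 8 cells held at least 2 of them, with 3 to 50 UMIs per cell. Among single T cell genes, Cd3g was found in 8 and Trbc2 in 7 cells, but Cd3e in 1, Trac in 3 and Cd4 in 2. No UMI of Cd3e, Trac, Trdc or Cd4 was held by 5 of the 8 cells. Cd3e was found in 19 of the other 27 cells. Of the 6 Treg markers 5 were found, with Foxp3 at 0, and 8 of 8 cells held at least 2 of them (5 to 27 UMIs per cell), the same count as for the ILC2 markers. Of the 7 Tfh markers 3 were found, with Cxcr5, Bcl6, Il21 and Sh2d1a at 0, and 2 of 8 cells held at least 2. Of the 6 γδ T cell markers 3 were found, with Trdc at 0, and 3 of 8 cells held at least 2. All 8 basophil and mast cell markers were at 0. The limits used to name clusters included none for ILC2, so the cluster could not take that name. In the cluster as a whole, 12 of 35 cells without butyrate and 6 of 67 with butyrate held at least 2 ILC2 markers. Among the lineage marker lists, that of γδ T cells scored highest for the whole cluster. Whether the 2 libraries differed in the number of such cells or in their RNA was not tested.

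With butyrate, cells of the same gene pattern were fewer and lay partly elsewhere. The 1 Il13 cell of the Tmem176b-Rora cluster held 18507 UMIs, with 1 Il13, 5 Il1rl1, 6 Il17rb and 18 Cd3g UMIs and 0 of Cd3e, Trac and Cd4. Among cycling CD4+ T cells, 1 cell with 57197 UMIs held 8 Il13, 5 Il5, 20 Gata3, 5 Il1rl1, 5 Il17rb, 22 Areg, 12 Klrg1 and 25 Arg1 UMIs but 3 Cd3e, 1 Trac and 0 Cd4 UMIs. It held 23 Cd3g UMIs. Another cycling CD4+ T cell held 2 Il13, 8 Gata3 and 5 Il1rl1 UMIs with 9 Cd3e and 17 Trac UMIs.

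Il4 and Il1rl1 were not found in the same CD4+ T cell, but both were rare. Il4 was found in 59 CD4+ T cells and Il1rl1, which encodes the IL-33 receptor, in 53, and 0 held both, where a count of 0 leaves room for up to 5.08% of the Il4 cells. That limit is above the share of the other CD4+ T cells with Il1rl1, which was 1.56% without and 0.986% with butyrate, so a lower share in Il4 cells was not detectable over all CD4+ T cells. In the S100a6-Maf sub-cluster, 48 cells held Il4 and 37 held Il1rl1, again with 0 in common, which leaves room for up to 6.25%. There Il1rl1 was found in 13.2% and 10.9% of the cells without Il4. Outside CD4+ T cells both genes were found in 5 cells without and 0 cells with butyrate. Since most of these cells held few UMIs of either gene, a missing UMI does not show that the gene was silent.

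Il4 cells and Il1rl1 cells also held different marker genes. Of the Il4 cells among CD4+ T cells, Pdcd1 was found in 26 of 32 without and 19 of 27 with butyrate, Cxcr5 in 17 and 14, Bcl6 in 16 and 10, and Il21 in 7 and 10. Cxcr5 or Bcl6 was found in 22 of 32 and 17 of 27 Il4 cells, but in 117 of 2250 and 113 of 1825 other CD4+ T cells. Foxp3, which defines Treg cells, was found in 0 of 32 and 0 of 27 Il4 cells. Of the Il1rl1 cells it was found in 25 of 35 without and 14 of 18 with butyrate, against 8.46% and 9.54% of the other CD4+ T cells. Klrg1 was found in 16 of 35 and 12 of 18 Il1rl1 cells, Il2ra in 21 and 10, and Rora in 22 and 14, whereas Cxcr5 was found in 0 of both. The median depth was 7991 and 9262 UMIs in Il4 cells and 5802 and 8087 in Il1rl1 cells, against 4943 and 5650.5 in all CD4+ T cells.

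Most Il1rl1 cells with Foxp3 were outside the cluster named Treg. The Treg cluster held 3 Il1rl1 UMIs in 236 cells without and 0 in 227 with butyrate. In the S100a6-Maf sub-cluster Foxp3 was found in 17 of 23 and 12 of 14 Il1rl1 cells and in 0 of 26 and 0 of 22 Il4 cells. That sub-cluster thus held cells with Il4 and Tfh genes beside cells with Il1rl1 and Foxp3, and both kinds occurred in both libraries. Outside T cells, Il1rl1 was found in 3 of 69 and 4 of 76 cells of a Lyz2 myeloid cluster, and in 0 B cells of both libraries.

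**Figure D4:**
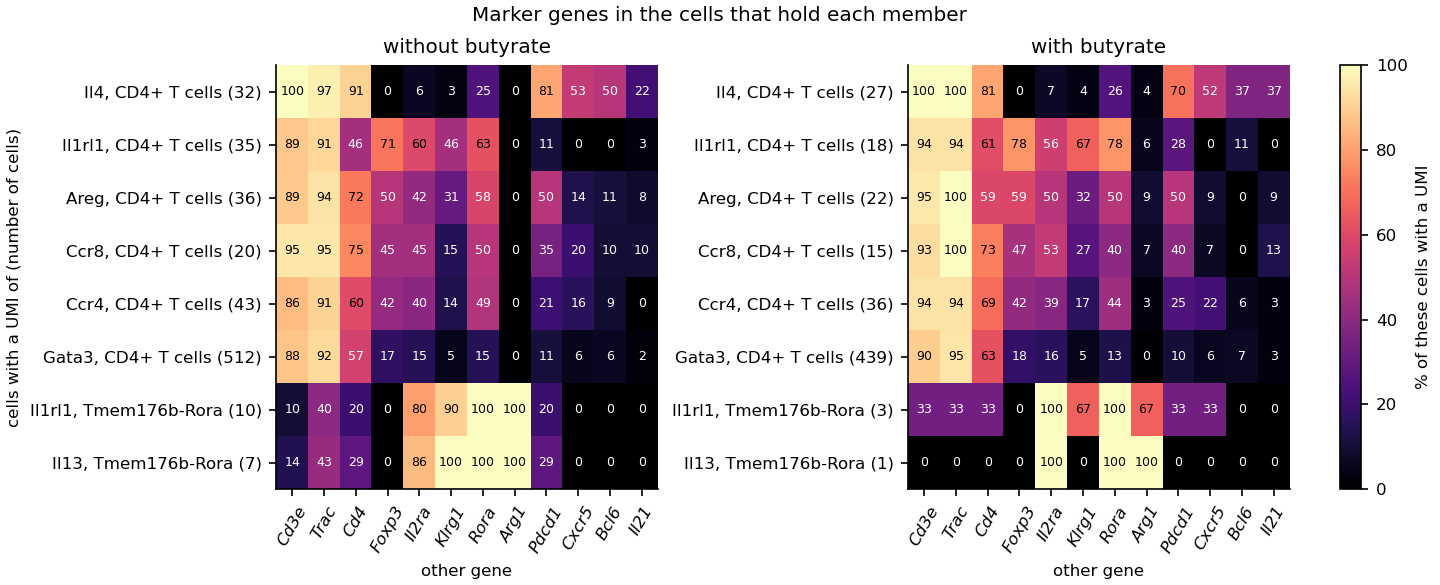
Percent of the cells holding each gene (rows, with their number) in which a marker gene (columns) was also found, by library. Foxp3 was at 0 in Il4 cells and at 71.4% and 77.8% in Il1rl1 cells among CD4+ T cells, and Cxcr5 was at 53.1% and 51.9% in the former and 0 in the latter.

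Areg, Ccr8 and Ccr4 cells among CD4+ T cells lay between these patterns. Foxp3 was found in 18 of 36 and 13 of 22 Areg cells, 9 of 20 and 7 of 15 Ccr8 cells, and 18 of 43 and 15 of 36 Ccr4 cells. Pdcd1 was found in 18 of 36 and 11 of 22 Areg cells, the same number as or fewer than Foxp3. Areg was found with Il1rl1 in 11 and 5 cells and with Il4 in 6 and 4 cells. Ccr4 cells were often cycling, with the proliferation gene Mki67 in 18 of 43 and 9 of 36, and Ccr4 was found in 14 of 35 and 7 of 24 cycling CD4+ T cells, which were the deepest CD4+ T cells (median 21597 and 23060.5 UMIs). Thinned to 2000 UMIs per cell, Ccr4 was found in 0% and 8.33% of cycling CD4+ T cells, so the high share was not separable from depth.

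Il17rb differed from the other receptors in where it was found. Of its 58 UMIs without butyrate 24 were in the Tmem176b-Rora cluster and 11 in CD4+ T cells, and with butyrate 36 and 21 of 82. It was found in 15 of 35 (42.9%, 26.3 to 60.6) and 22 of 67 (32.8%, 21.8 to 45.4) cells of that cluster, and in 0.195% and 0.256% of B cells. Of these cells, 8 of 15 without butyrate but 2 of 22 with butyrate also held Il1rl1, and Cd3e was found in 7 of 15 and 19 of 22. Arg1 was found in 8 of 15 and 4 of 22. The level of Il17rb in the cluster was thus alike in both libraries while the genes found beside it were not.

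Gata3 had a graded order over the T cell classes. Without butyrate it was highest in the Tmem176b-Rora cluster (310 CPM, 246 to 384), followed by the S100a6-Maf sub-cluster (168 CPM, 146 to 193), and these intervals did not overlap. With butyrate the S100a6-Maf sub-cluster (229 CPM, 202 to 259) was above the Tmem176b-Rora cluster (165 CPM, 128 to 209), with intervals that overlapped. Of the Gata3 UMIs of the S100a6-Maf sub-cluster with butyrate, 59 were in the 1 cell with most cytokine UMIs. Cycling CD4+ T cells followed at 96.7 CPM (77.1 to 120) and 140 CPM (113 to 171), then Treg cells at 82.4 CPM (66.0 to 102) and 89.9 CPM (72.8 to 110), and the intervals of these neighbours overlapped without butyrate only. γδ T cells (58.2 and 51.0 CPM), the Sox4-Rag1 sub-cluster (48.6 and 32.4 CPM), naive CD4+ T cells (40.9 and 37.6 CPM) and interferon-response CD4+ T cells (31.7 and 53.9 CPM) had overlapping intervals in both libraries. CD8+ T cells were lower, at 21.9 and 21.8 CPM. In B cells Gata3 was at 0.489 and 0.714 CPM and found in 0.195% and 0.358% of cells, against 22.4% and 23.7% of CD4+ T cells. After thinning, the shares of CD4+ T cells were 9.79% and 10.3%.

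Il5 and Il13 were found together more often than with Il4 in the library without butyrate, while with butyrate the counts were small and close. Without butyrate, Il13 was found in 6 of 7 Il5 cells and Il5 in 6 of 8 Il13 cells, while Il4 was found in 1 of 8 Il13 cells. With butyrate, Il13 was found in 3 of 6 and Il4 in 2 of 6 Il5 cells, and Il5 and Il4 in 3 of 14 Il13 cells each. At 2 or more UMIs of each gene with butyrate, Il13 was found in 2 of 2 and Il4 in 1 of 2 Il5 cells. By the same limit Il5 and Il4 were found in 2 of 4 Il13 cells each. All 3 cytokine genes were found in 1 cell without and 2 cells with butyrate. Gata3 was found with each of them, in 30 of 45 and 24 of 47 Il4 cells, and in 7 of 8 and 5 of 14 Il13 cells. It was found in 9.47% and 10.0% of all cells without Il4, which were not matched by class or depth. The S100a6-Maf sub-cluster held 26 of the 45 and 22 of the 47 Il4 cells, and Gata3 was found in 51.5% and 56.7% of all its cells. After thinning, Gata3 was found in 3 of 17 and 4 of 14 Il4 cells, against 3.76% and 3.61% of the others. Whether Gata3 went with Il4 beyond cell class was not tested. Il1rl1 accompanied Il13 in 7 of its 8 cells without butyrate, but with butyrate in 3 of its 14, and 10 of those 14 held only 1 Il13 UMI.

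Cells that held several of the genes were rare and deep. At least 3 of the 9 genes were found in 48 cells without and 32 cells with butyrate, and at most 7 in any cell. The Tmem176b-Rora cluster had 13 such cells of 35 (37.1%, 21.5 to 55.1) without and 5 of 67 (7.46%, 2.47 to 16.6) with butyrate. The S100a6-Maf sub-cluster had 19 of 200 (9.50%, 5.82 to 14.4) and 15 of 150 (10.0%, 5.71 to 15.96), and no B cell had 3. Cycling CD4+ T cells had 8 of 35 (22.9%, 10.4 to 40.1) and 4 of 24 (16.7%, 4.74 to 37.4). Other cycling cells had 6 of 111 (5.41%) and 6 of 68 (8.82%). The median depth was 4974.5 and 5482 UMIs in cells with none of the genes and 13448 and 9961.5 UMIs in cells with 3, so co-detection moved with depth. Thinned to 2000 UMIs per cell, Il13 was found in 4 cells without butyrate, and Il5 in 0 of these.

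**Figure D5:**
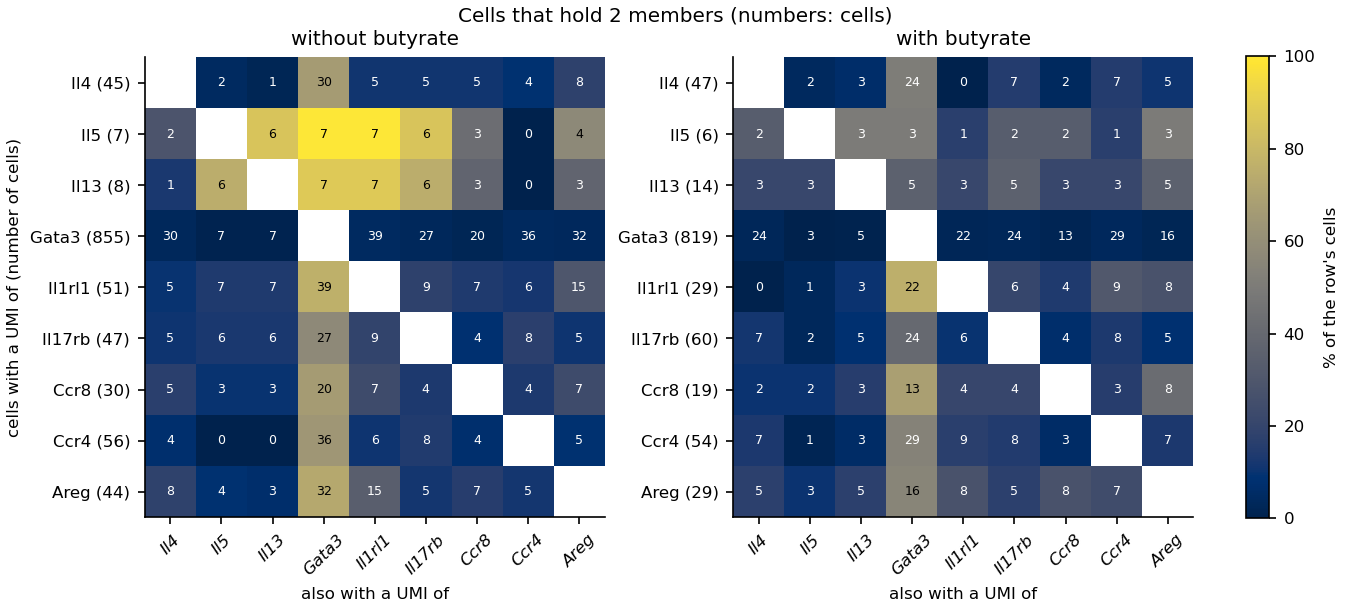
Number of cells that hold both the row gene and the column gene, by library; the number of cells with the row gene is in brackets and the colour is the percent of the row's cells. Without butyrate, Il5 and Il13 cells nearly all held Gata3 and Il1rl1 (7 of 7 and 7 of 8), and with butyrate 3 of 6 and 5 of 14 held Gata3.

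Type 2 cytokine cells were compared with the other CD4+ T cells of the same library. In each library 10 of the 13 were in the S100a6-Maf sub-cluster and 3 were cycling. Most of the other CD4+ T cells were in neither class, and the comparison did not match cells by class. A higher level can therefore mark the class as well as the cytokine cells within it. A log2 ratio of at least 1 in both libraries was reached by 465 of 9721 genes (4.78%), and of at most −1 by 227 (2.34%). With the same cells thinned to 2000 UMIs each, an alternative chosen after seeing the data, 241 of the 465 genes passed again among 631 in all, and when the 13 and 13 cells were chosen anew after thinning, which left 1 and 3 cells, 47 did among 219. Of the 4 members with enough UMIs that had not chosen the cells, 1 passed. This was Areg, with log2 ratios of 1.87 without and 5.36 with butyrate, while Gata3 was at 0.67 and 2.48. Areg was found in 2 of the 13 cells without butyrate (8 UMIs) and 6 of 13 with butyrate (150 UMIs), and without the 1 cell with most cytokine UMIs the ratios with butyrate were 4.15 for Areg and 1.84 for Gata3. In the same cells thinned, Areg was at 0 UMIs without butyrate (−0.46) and did not pass. The genes with the largest smaller ratio of both libraries were Pdcd1, which encodes the inhibitory receptor PD-1 (3.54), Angptl2 (3.52), Lag3, another inhibitory receptor (3.43), the cell cycle gene Ube2c (3.40), Tnfsf8 (CD30 ligand, 3.14), Smco4 (3.08), Eea1 (3.07), Rgs16, a regulator of G protein signalling (3.02), Tox2, a transcription factor of Tfh cells (2.99), and the cyclin gene Ccnb1 (2.97). Pdcd1 was found in 84.6% and 92.3% of these cells against 4.14% and 3.53% of the others. In the same cells thinned, 8 of these 10 genes passed again, and Ube2c and Ccnb1 did not (0 UMIs with butyrate). Pdcd1 and Tox2 were also leading genes of the whole S100a6-Maf sub-cluster, and Ube2c of cycling cells. With butyrate, Pdcd1 was found in 29.7% of the 148 S100a6-Maf cells without Il5.

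A list of 32 other genes of type 2 immunity held 20 with enough UMIs in CD4+ T cells. In type 2 cytokine cells 7 were higher in both libraries: Maf, a transcription factor that acts on Il4 (2.90 for the smaller log2 ratio), Il21 (2.68), Tnfsf11 (2.04), Nfil3 (1.87), Igfbp7 (1.75), Batf, a transcription factor of Tfh and Th2 cells (1.61), and Il9r (1.54). Il7r, the IL-7 receptor of resting T cells, and Il4ra, the IL-4 receptor, were lower. In the same cells thinned, 4 of the 7 passed again (Maf, Il21, Tnfsf11 and Batf), as did Il7r. The median over the list was 0.46, against −0.23 over all genes. Here too cells were not matched by class, and Maf was a leading gene of the whole S100a6-Maf sub-cluster. Il3, Il9, Il24 and Il31 were at 0 UMIs in the CD4+ T cells of both libraries, and Ptgdr2, a Th2 prostaglandin receptor, was at 1 and 0.

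Between the libraries, 1 of the 20 listed genes was called in CD4+ T cells and 0 were lower by the same limit. This was Il10, with 40 UMIs without and 230 with butyrate and a log2 ratio of 1.19, and 193 of the 230 UMIs were in the 1 cell with most cytokine UMIs. The median log2 ratio of the list was −0.01, against 0.01 over all genes.

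The genes whose levels ran most alike with each member were taken over 10 cell classes in 2 libraries, which gives 20 points that share libraries and depth, so the correlations are descriptions. The Tmem176b-Rora cluster had too few cells without butyrate to be among them. Il5 and Il13 ran together (Pearson's r = 0.999), each also with Ccl1 (0.988 and 0.991), and Il4 with Il10 (0.977) and Igfbp7 (0.967). These pairs have their largest UMI counts in the 1 cell described above. For Il1rl1 they were Ascl2 (0.978) and Asb2 (0.977), for Ccr8 Penk (0.956), for Ccr4 Rgs16 (0.981), for Areg Angptl2 (0.978) and Lgals7 (0.977), for Gata3 Tox (0.965) and for Il17rb Stard3nl (0.848).

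Basophils and mast cells, known sources of IL-4 and IL-13, were almost absent. Cells with at least 3 of 8 basophil and mast cell markers numbered 2 without and 1 with butyrate, within the Lyz2 myeloid cluster. They held 4 and 5 Il4 UMIs and 0 Il13 UMIs.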

How the data were processed

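The data were 3′ single-cell RNA-seq counts of 2 libraries, each from 4 pooled mice. The authors aligned reads with Cell Ranger 6.0.1 to mm10, and the deposited matrices hold raw UMI counts per gene and cell. Barcodes whose UMIs were more than 10% mitochondrial, or with fewer than 200 genes (186 and 327), and doublets called with Scrublet in scanpy 1.11.5 at a rate proportional to cell number (735 and 615) were removed. Cells of both libraries were clustered with Seurat 5.3.0 in R 4.3.3 (2000 variable genes without the 9 genes, 30 components, 20 neighbours, resolution 0.8). Clusters of all cells were named by fixed CPM limits on single marker genes, and CD4+ sub-clusters from marker lists and leading genes. Counts were summed per class in Python 3.11.15 and compared as the log2 ratio of CPM + 10 for genes whose summed UMIs reached 50, and a ratio of at least 1 in size was called. Intervals are exact Poisson (levels) and Clopper-Pearson (shares), and that of a ratio combines both Poisson intervals. The ratio was checked on simulated data. For thinned shares each cell was drawn down to 2000 UMIs, leaving out 101 and 57 shallower cells. Besides the 9 genes, the text names the top genes of type 2 cytokine cells found in at least 25% of them in both libraries, listed type 2 and marker genes, and the nearest genes by correlation; genes named in single cells were chosen after their values were seen. The members and lists were chosen with earlier results of these data known. Samples were grouped by their labels, and alternatives covered filters, doublets, clustering, pseudocount, scaling, thinning and single cells left out.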

Additional observations from a re-analysis of the deposited data

Results flagged for a closer look

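The 3 cytokine genes had log2 ratios of opposite sign in different cell classes. The log2 ratio with over without butyrate in CD4+ T cells and in the Tmem176b-Rora cluster was 2.93 and −1.30 for Il4, 1.24 and −3.10 for Il5, and 3.44 and −4.50 for Il13. With 1 library per condition the difference was not tested, and the CD4+ T cell values rest on 1 cell. At clustering resolutions of 0.4 and 1.2 the Tmem176b-Rora cells fell among CD4+ T cells, so the opposition is not seen there. Cells removed as damaged or as predicted doublets also held UMIs of the genes, and the genes given here had over 3 such UMIs that were at least 10% of their UMIs in the library. Without butyrate they held 16 Il13, 166 Gata3, 19 Il1rl1, 13 Ccr4 and 43 Areg UMIs, and with butyrate 4 Ccr8 and 19 Ccr4 UMIs. The 16 Il13 UMIs were in 2 cells called doublets, which held 20 and 16 Cd4 UMIs.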

How the results depend on the processing

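With 1 library per condition the results describe these libraries, and depth limits what a missing UMI shows. No paired analysis was possible because each condition has 1 library. The 3 calls in CD4+ T cells became 0 with CD4+ T cells taken by single marker genes, without the cell with most UMIs of each gene, after thinning, and without the 1 cell with most cytokine UMIs, an alternative chosen after seeing the data. Il13 reversed to −0.37 with single marker genes (29 against 56 UMIs). Leaving out the 1 cell alone kept it at 0.43 (39 against 0 UMIs), and the single marker genes also took in 2 Tmem176b-Rora cells with 48 and 8 Il13 UMIs. The share of type 2 cytokine cells without butyrate was 1.40% at 1 UMI or more, 0.175% at 5 or more, 1.201% with single marker genes and 0.0443% after thinning. With butyrate it was 1.73%, 0.324%, 1.07% and 0.164% under the same 4 settings in turn. The share was the higher one without butyrate with single marker genes, at resolutions 0.4 (0.901% against 0.672%) and 1.2 (0.907% against 0.680%) and with the Tmem176b-Rora cluster counted (0.906% against 0.677%), and lower in the other settings tried. At resolution 0.4 the Il5 ratio was 0.99 and no longer called. The 465 genes higher in these cells became 219 after thinning (1 and 3 cells), with 47 shared. With the Tmem176b-Rora cluster counted among CD4+ T cells, chosen after seeing the data, the log2 ratio was 1.004 for Il5 and 2.75 for Il13. Of the other single values, 137 moved by less than their counting interval or not at all, 85 by more, and 1, the Il13 ratio above, reversed.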
